A study of Rattus norvegicus with 18 samples.

Results

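Cell cycle and DNA replication genes were followed in cultured rat bone marrow mesenchymal stem cells (BMSC) across 2 diets and 3 feeding times. The set is a list of 60 gene symbols, drawn up by name with earlier results of these arrays known. Of these, 25 were listed under the start of S phase (the G1/S members) and 35 under mitosis (the mitotic members). The split is by list and does not mean that a gene acts in that phase alone. A member was measured where a probe set of the array carried its symbol and no other. That held for 55 of the 60, 23 G1/S and 32 mitotic, on 79 probe sets of 31099, and 76 of these were above the intensity filter. The 5 without such a probe set were Cdc6, Rrm2, Cdc25c, Tpx2 and Kif4a, and Rrm2 appears only on 2 probe sets that also name Rrm2l1. All 55 measured members passed the filter on dim probe sets, among 11446 named genes that did so. Each was represented by its brightest tested probe set, and 51 had a value on every array. Pcna, Fen1, Cdk1 and Aurkb had none on 1 array, as the processing section describes.

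The rats were Sprague-Dawley, 6 weeks old when feeding began. The normal diet (ND) was basal chow at 100%, and the high-fat diet (HFD) held 60% basal chow, 20% lard, 10% sucrose and 10% egg yolk powder. The 6 groups were ND and HFD after 1, 2 and 4 months, with 3 Affymetrix arrays each and 18 in all, and no strain, allele or drug differed between them. Both diets' cells were grown alike, by plating whole marrow without sorting and passaging the adherent cells in low-glucose medium with 10% serum, so the arrays read cultured cells and not fresh marrow. The sample labels place the RNA at passage 3 and the series description at passage 1. The 3 arrays of a group are described only as 3 per group, so the p-values measure the spread between these arrays, whose origin in separate animals is not stated array by array.

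The stromal surface markers Thy1 (11.7 to 12.1 log2 units over the arrays) and Itgb1 (10.8 to 11.4) were bright on every array, whereas Vcam1 ran from 2.56 to 6.77. Of 3 tested lymphoid markers, Cd3e and Cd2 stayed at or below 3.58 and 3.83 on all arrays, and Gzmb reached 5.99. Of 4 tested erythroid markers, the haemoglobin gene Hbb, Epor and Slc4a1 stayed at or below 5.08, 4.63 and 4.84, whereas Tfrc, the transferrin receptor that other cells carry too, ran from 9.02 to 11.6. The 3 tested granulocyte and mast cell markers stayed at or below 5.47, and the 2 tested endothelial markers ran from 2.56 to 4.91 (Tie1) and from 4.93 to 6.97 (Esam). Markers of macrophages were present too and varied within groups. Cd68, a lysosomal protein, ran from 4.53 to 10.8 log2 units. Of 25 macrophage markers 22 were tested and 3 had no probe set of their own. In bulk RNA, fewer cells of a type and less RNA per cell cannot be told apart, which for these genes also covers fewer dividing cells.

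Cells pass from G1 into S phase when cyclin-dependent kinases release E2F transcription factors from the RB protein, and E2F targets then build and fire the replication machinery. Mitotic genes peak later, under the B-MYB and FOXM1 factors that join the MuvB core at a promoter element called the CHR, often beside a CCAAT box bound by NF-Y. In resting cells the DREAM complex keeps both waves silent, and marrow stromal cells in a dish divide only while they have room, nutrients and growth factors.

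The members' own promoters were searched for the elements of both waves. RefSeq promoters on the rat assembly GRCr8 were available for 49 of the 60 members, 47 of them measured, 2 of them with several promoters that were each counted, and each window held 300 bases, from 250 before the transcription start to 50 after it. E2F letters were searched as TTCCCGC, as TTCGCGC, as TTGGCGC and as TTGCCGC. The CHR was searched as TTTGAA and as TTCGAA, and the CCAAT box by its name's letters. Both strands were read, and overlapping matches were allowed. Shown first are 3 G1/S promoters, those with the strongest averaged diet statistic among the 5 with at least 2 E2F matches before the start. Capitals mark the E2F letters, and the 150 bases before the start are given 5′ to 3′ on the gene's strand. Mcm6 lies at chr13:42404353-42404502 (minus strand), Mcm7 at chr12:22163179-22163328 (minus strand) and Gins1 at chr3:160184770-160184919 (plus strand).
Mcm6: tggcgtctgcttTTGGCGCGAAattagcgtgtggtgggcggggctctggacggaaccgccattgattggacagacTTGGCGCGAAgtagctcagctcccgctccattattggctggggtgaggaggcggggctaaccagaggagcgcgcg
Mcm7: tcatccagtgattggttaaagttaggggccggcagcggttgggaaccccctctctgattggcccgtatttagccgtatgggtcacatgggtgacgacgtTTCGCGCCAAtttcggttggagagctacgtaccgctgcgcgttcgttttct
Gins1: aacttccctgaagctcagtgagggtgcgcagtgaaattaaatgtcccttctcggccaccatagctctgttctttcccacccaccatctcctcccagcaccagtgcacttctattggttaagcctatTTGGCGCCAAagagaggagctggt

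The mitotic promoters were chosen in the same way among the 9 with a CHR and a CCAAT box before the start. Capitals mark both elements. Ccnb2 lies at chr8:79981659-79981808, Mki67 at chr1:199952594-199952743 and Hmmr at chr10:25665216-25665365, all on the minus strand.
Ccnb2: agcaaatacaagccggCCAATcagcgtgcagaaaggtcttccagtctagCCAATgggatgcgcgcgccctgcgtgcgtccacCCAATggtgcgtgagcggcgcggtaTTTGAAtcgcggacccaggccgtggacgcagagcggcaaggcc
Mki67: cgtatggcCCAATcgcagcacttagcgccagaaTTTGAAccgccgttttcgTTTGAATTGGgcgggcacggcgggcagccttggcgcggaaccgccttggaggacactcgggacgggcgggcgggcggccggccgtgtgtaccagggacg
Hmmr: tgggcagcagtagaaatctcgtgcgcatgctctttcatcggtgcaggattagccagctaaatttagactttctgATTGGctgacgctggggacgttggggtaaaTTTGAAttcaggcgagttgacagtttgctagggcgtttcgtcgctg

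The CHR nearest the start stood 38 bases before it in Ccnb2 and 41 in Hmmr, and 94 in Mki67, where a CHR and a CCAAT box touch. The E2F letters nearest the start stood 66 bases before it in Mcm6, 42 in Mcm7 and 15 in Gins1. Ccnb2 and Mki67 also hold an E2F match, which is not marked. The G1/S promoters shown hold CCAAT boxes that are not marked as such, 2 in Mcm6, 3 in Mcm7 and 1 in Gins1. A match is a description of letters and not a proven binding site.

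E2F letters were found in 16 of 22 G1/S promoters (72.7%) and in 6 of 30 mitotic promoters (20.0%), against 16.5% of 10673 promoters of the tested named genes and 9.52% of all 33469 promoters in the table. The CHR had the opposite distribution, with 3 of 22 G1/S promoters (13.6%) and 20 of 30 mitotic ones (66.7%), against 13.3% of the promoters of tested genes and 19.7% of all. CCAAT boxes were present in 63.6% of the G1/S and 73.3% of the mitotic promoters, and in 37.4% of those of tested genes and 37.5% of all. A CHR and a CCAAT box together were found in 56.7% of the mitotic and 9.09% of the G1/S promoters, against 5.55% of those of tested genes and 7.95% of all. Further S-phase and mitotic genes outside the 60 showed the same split: 66.7% of 36 promoters held E2F letters in the first list, and 77.4% of 53 held a CHR in the second.

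**Figure D1:**
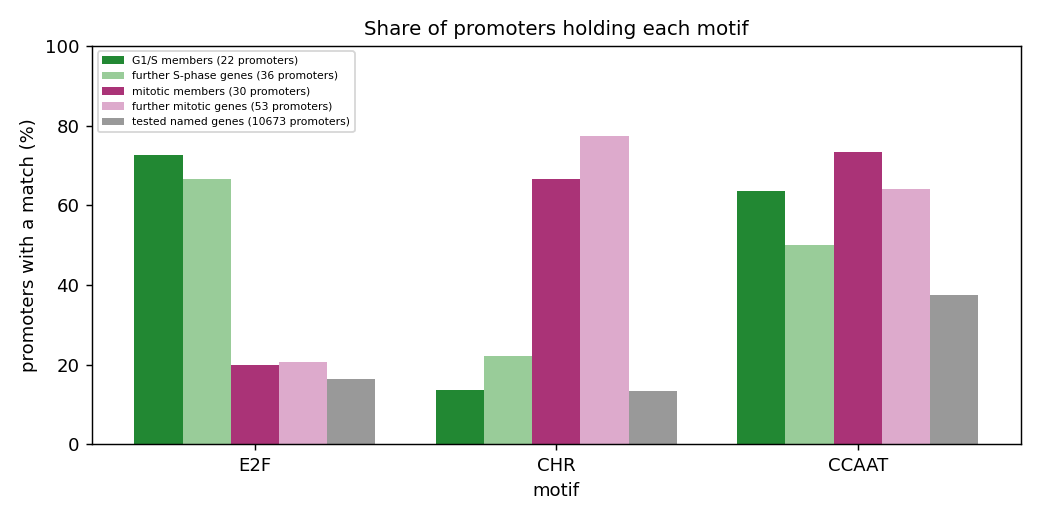
Share of promoters, in percent of the promoters in each set, that hold the E2F, CHR or CCAAT letters on either strand. The E2F bars are highest for G1/S genes (72.7% for the members) and the CHR bars for mitotic genes (66.7% for the members).

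In the arrays the median of the 55 members was lower with HFD than with ND at each feeding time, and 42 members were negative at all 3 times. The 1-month medians of both classes turned positive when HFD 1-month replicate 3 was left out. No member passed a test in any of the 11 comparisons, although some passed with array weights or without single arrays, as given further on. The median of the members' log2 fold changes, HFD minus ND, was -0.12 at 1 month, -0.74 at 2 months and -0.57 at 4 months. The median of all 11446 named genes was -0.06, -0.04 and -0.01. The 2-month median is 1.67-fold lower on the linear scale. Mitotic members had wider differences than G1/S members, with medians of -0.15, -0.77 and -0.71 against -0.08, -0.56 and -0.41, a gap that was not tested. The test was limma's moderated test with Benjamini-Hochberg adjustment over all 21729 tested probe sets, and passing meant an adjusted p under 0.05. In either direction, 2.49% of the named genes passed at 2 months, 2.43% in the average over times, 0.0961% from 1 to 2 months in HFD and 0.769% from 2 to 4 months in HFD, and 0.0% in every other comparison. The diet and time comparisons share arrays, so their values for the members are not independent of each other.

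The arrays show where these medians come from. Each array was summarised by the mean of the 21 G1/S and of the 30 mitotic members measured on all arrays, in log2 units relative to the mean of the 18 arrays. At 1 month the G1/S mean was 0.18, 0.14 and -0.10 on ND replicates 1, 2 and 3, and 0.01, 0.17 and -0.19 on the HFD replicates. The mitotic mean was 0.25, 0.40 and -0.07 with ND and 0.13, 0.27 and -0.28 with HFD. The diets overlapped in both classes.

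After 2 months the G1/S mean was -0.10, 0.27 and -0.08 with ND, and -0.90, -0.45 and -0.28 with HFD. The mitotic mean was -0.28, 0.34 and 0.11 with ND, and -1.44, -0.52 and -0.40 with HFD. Every HFD array lay below every ND array in both classes, and HFD replicate 1 was the lowest of all 18.

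After 4 months the G1/S mean was 0.72, -0.56 and 1.10 with ND, and -0.47, -0.01 and 0.55 with HFD. The mitotic mean was 1.03, -0.56 and 1.33 with ND, and -0.67, 0.09 and 0.27 with HFD. ND replicates 1 and 3 were the highest of the 18 arrays in both classes, while ND replicate 2 lay near the bottom, so the diets overlapped. The pooled SD of arrays within a group was 0.45 for the G1/S mean and 0.56 for the mitotic mean. By group the SD ran from 0.15 (ND at 1 month) to 0.87 (ND at 4 months) for the G1/S mean. For the mitotic mean it ran from 0.24 to 1.02 in the same groups. In the fit each probe set has 1 estimate of the spread over all 6 groups. The ND 4-month arrays therefore enter the SE and p-values at 1 and 2 months too.

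**Figure D2:**
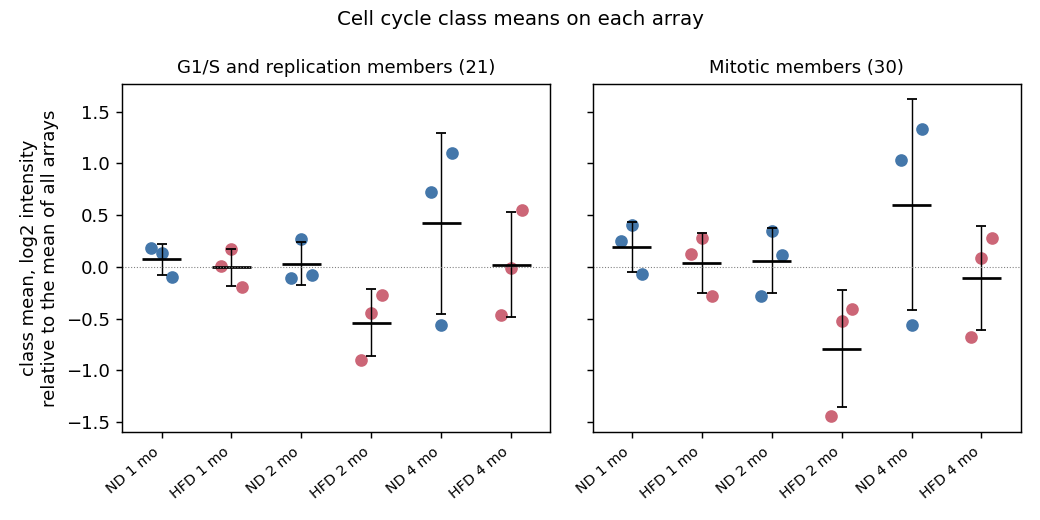
Mean of the G1/S members (left, 21 genes) and of the mitotic members (right, 30 genes) on each array, in log2 intensity relative to the mean of the 18 arrays; points are arrays (blue ND, red HFD), bars the group mean ± SD (n = 3). HFD arrays at 2 months lie between -0.90 and -0.28 in the left panel, below all ND arrays of that time, and ND arrays at 4 months spread from -0.56 to 1.10.

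The members varied together from array to array. Of the 51 measured everywhere, 0 lay above their own group's mean on HFD 2-month replicate 1, ND 4-month replicate 2 and HFD 4-month replicate 1. All 51 did so on ND 2-month replicate 2, on ND 4-month replicates 1 and 3 and on HFD 4-month replicate 3. The members share these arrays, so a count of members of one sign rests on few arrays. Members differed in how wide their spread was: the pooled SD within groups ran from 0.247 log2 units in Pcna to 0.727 in Kif20a.

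**Figure D3:**
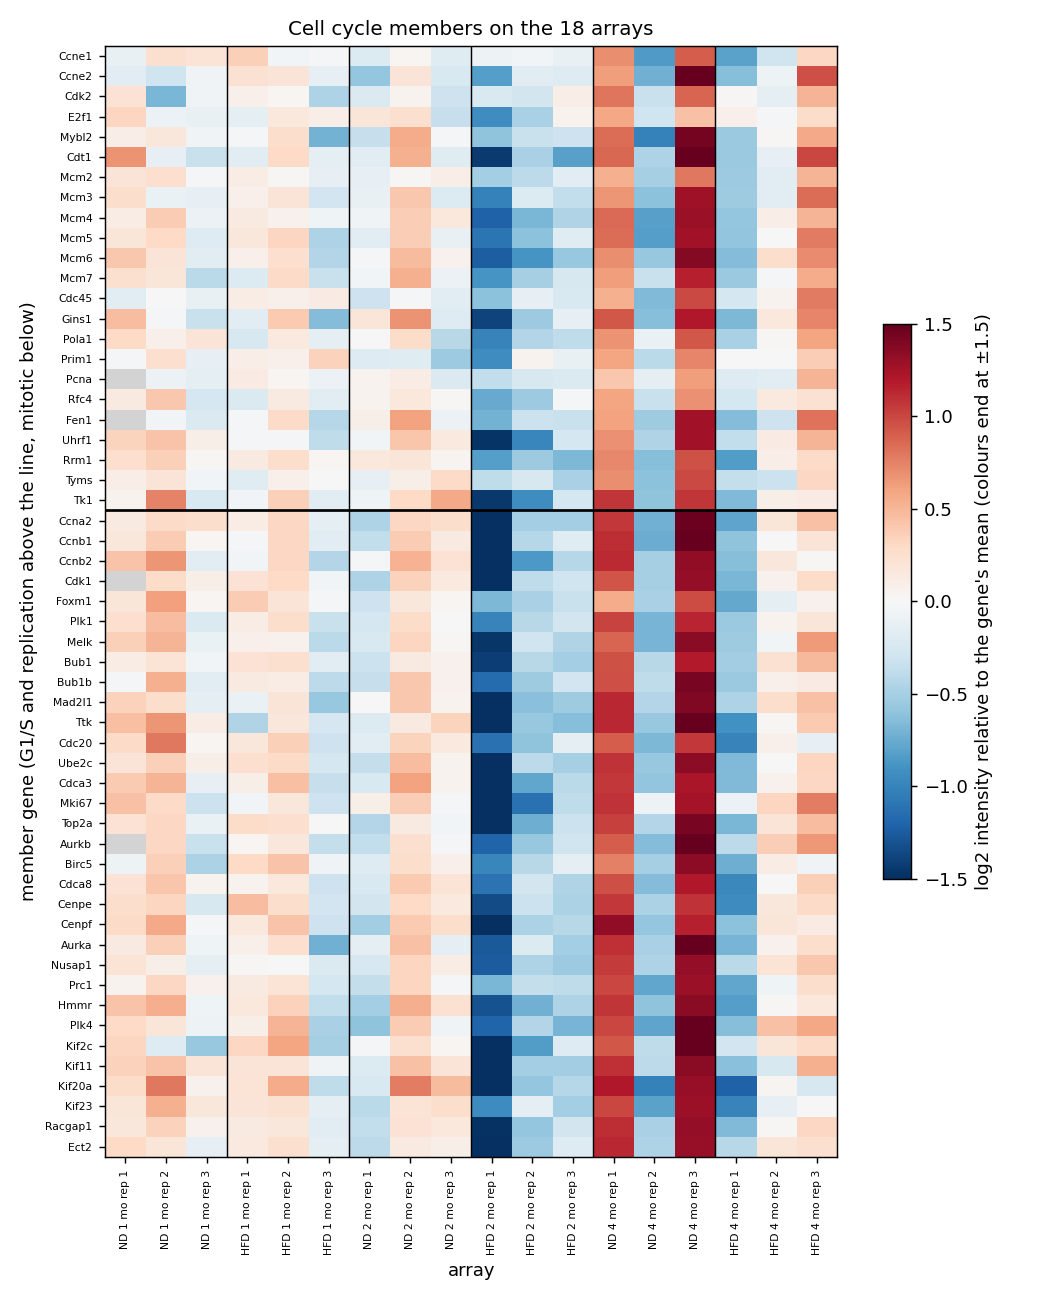
Log2 intensity of the 55 members (rows) on the 18 arrays (columns), each relative to the gene's mean over the arrays; blue is lower, red is higher, grey has no value. Whole columns share a colour: HFD 2-month replicate 1 is the bluest and ND 4-month replicates 1 and 3 the reddest.

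Markers of other cells varied between the same arrays. Of the 22 tested macrophage markers, those with a value on every array were averaged on each array, relative to all arrays. At 1 month this mean was 1.5, -2.07 and -3.52 in ND and -0.54, 0.88 and -0.72 in HFD. It was 1.76, 1.60 and -1.85 in ND and -2.53, -1.16 and 0.10 in HFD at 2 months. At 4 months it was 0.30, 2.05 and -0.05 in ND and 1.68, 1.25 and 1.33 in HFD, so ND replicate 2 had the highest marker mean and the lowest cell cycle means of its group. The same held for ND 2-month replicate 1 and HFD 4-month replicate 1. Both kinds of mean were the lowest of their group on ND 1-month replicate 3, HFD 1-month replicate 3 and HFD 2-month replicate 1. All 22 macrophage markers were lower with HFD at 2 months (median difference -1.63), all 22 higher at 4 than at 2 months in HFD (2.51) and all 22 higher at 4 than at 1 month in ND (2.40). Of named genes, 55.3% were lower in the first of these comparisons, and 48.8% and 43.6% were higher in the others. With this mean as a covariate the 2-month medians were -0.57 for the G1/S and -0.80 for the mitotic members, and the 4-month medians -0.41 and -0.70, again with 0 members passing. With the same covariate the median of all members was -0.73 from 1 to 2 months in HFD, 0.67 from 2 to 4 months in HFD and 0.41 from 1 to 4 months in ND, against -0.69, 0.65 and 0.37 without it. Both endothelial markers, Tie1 and Esam, were lower with HFD at 2 months (median -0.98) and higher at 4 than at 2 months in HFD (1.48), where neither overlapped. In that last comparison 13.7% of named genes were higher without overlap. The defining endothelial markers Pecam1, Kdr, Tek, Emcn and Vwf were all among the dim probe sets left out. The lymphoid marker Gzmb stood at 1.31 ± 0.47 (adjusted p = 0.139) at 2 months, and the part of these markers in the members' values was not tested.

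At 2 months 53 of 55 members were negative, from -1.45 in Mki67 to 0.04 in Ccne1, and 55.3% of all named genes were negative. None passed: the lowest adjusted p was 0.0872 in limma, and 12 members were lower at an unadjusted p under 0.05 (12.1% of named genes). Members whose 3 HFD values all lay below the 3 ND values numbered 30 of 55, against 14.8% of named genes. The counts without overlap given by role below divide these 30 members, and the same 14.8% stands beside each. The roles rest on the same arrays, so their counts are not separate results. The share of named genes that passed in the lower direction was 1.39%.

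The 9 measured licensing and helicase members, which load and drive the replicative helicase, were negative to the last at 2 months, with a median of -0.68 and 6 free of overlap. Mcm7 stood at 7.95, 7.89 and 7.31 with ND and 7.50, 7.99 and 7.37 with HFD at 1 month, 7.66, 8.24 and 7.62 with ND and 6.81, 7.20 and 7.47 with HFD at 2 months, and 8.34, 7.37 and 8.87 with ND and 7.15, 7.68 and 8.26 with HFD at 4 months. Mcm7, a subunit of the MCM helicase and the brightest of this role, had lower values on every HFD array than on any ND array at 2 months, and its difference was -0.68 ± 0.36 (adjusted p = 0.293). Mcm6 stood at 7.57, 7.36 and 7.0 with ND and 7.24, 7.41 and 6.73 with HFD at 1 month, 7.15, 7.64 and 7.23 with ND and 5.93, 6.28 and 6.60 with HFD at 2 months, and 7.86, 6.60 and 8.54 with ND and 6.52, 7.43 and 7.88 with HFD at 4 months. The groups of Mcm6, another helicase subunit, were also apart at 2 months, by -1.07 ± 0.42 (adjusted p = 0.171). At 4 months they overlapped: ND replicate 2 lay below HFD replicates 2 and 3, and HFD replicate 3 lay just above ND replicate 1. Averaged over the times Mcm6 stood at -0.55 ± 0.24 (adjusted p = 0.206). Cdc45, which joins the helicase when an origin fires, was the exception of this role at -0.15 ± 0.33 (adjusted p = 0.815), and its 3 probe sets ran from -0.15 to 0.01.

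Members that copy and maintain DNA had a median of -0.54 at 2 months, with 6 of 6 negative and 3 without overlap. Uhrf1 stood at 6.80, 6.89 and 6.55 with ND and 6.45, 6.44 and 6.08 with HFD at 1 month, 6.42, 6.89 and 6.61 with ND and 4.99, 5.48 and 6.20 with HFD at 2 months, and 7.16, 6.01 and 7.73 with ND and 6.10, 6.59 and 6.98 with HFD at 4 months. Uhrf1, which guides DNA methylation onto the new strand, was below ND on all HFD arrays at 1 and 2 months. Its difference was -0.42 ± 0.37 (adjusted p = 0.76) at 1 month, -1.08 ± 0.37 (adjusted p = 0.126) at 2 months and -0.64 ± 0.21 (adjusted p = 0.109) on average. Pcna (replicates 2 and 3 with ND at 1 month) stood at 9.73 and 9.68 with ND and 9.94, 9.84 and 9.72 with HFD at 1 month, 9.87, 9.92 and 9.59 with ND and 9.45, 9.58 and 9.60 with HFD at 2 months, and 10.22, 9.67 and 10.44 with ND and 9.62, 9.66 and 10.33 with HFD at 4 months. Pcna, the sliding clamp of the DNA polymerases and the brightest member of this role, differed little, with -0.26 ± 0.20 (adjusted p = 0.483) at 2 months and HFD values that touched the ND range. The primase subunit Prim1 stood at -0.02 ± 0.28 (adjusted p = 0.971).

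The enzymes that supply deoxynucleotides, Rrm1, Tyms and Tk1, were all lower and free of overlap at 2 months, with a median of -0.81. Rrm1 stood at 7.73, 7.84 and 7.51 with ND and 7.63, 7.75 and 7.52 with HFD at 1 month, 7.65, 7.67 and 7.53 with ND and 6.66, 6.94 and 6.81 with HFD at 2 months, and 8.21, 6.84 and 8.44 with ND and 6.65, 7.58 and 7.77 with HFD at 4 months. Rrm1, the large subunit of ribonucleotide reductase, was -0.81 ± 0.34 (adjusted p = 0.192) apart at 2 months. Tk1 stood at 6.80, 7.49 and 6.52 with ND and 6.71, 7.10 and 6.58 with HFD at 1 month, 6.68, 7.04 and 7.31 with ND and 5.30, 5.81 and 6.48 with HFD at 2 months, and 7.81, 6.14 and 7.82 with ND and 6.09, 6.83 and 6.86 with HFD at 4 months. Tk1, the thymidine salvage kinase, showed the widest 2-month difference of the G1/S members, -1.15 ± 0.42 (adjusted p = 0.152), and averaged -0.65 ± 0.25 (adjusted p = 0.148). Its 3 tested probe sets ran from -1.62 to -0.45 at 2 months.

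The regulators of the G1/S step itself had the median nearest to 0, a 2-month median of -0.19, 3 of 5 negative and none without overlap. Ccne1 stood at 6.06, 6.40 and 6.37 with ND and 6.52, 6.12 and 6.13 with HFD at 1 month, 5.96, 6.20 and 5.98 with ND and 6.08, 6.12 and 6.06 with HFD at 2 months, and 6.86, 5.32 and 7.07 with ND and 5.36, 5.86 and 6.48 with HFD at 4 months. Ccne1, a cyclin that activates Cdk2, was level between diets at 2 months, at 0.04 ± 0.36 (adjusted p = 0.963), while the values of both diets at 4 months spread over more than a log2 unit. E2f1 stood at 6.43, 6.02 and 6.0 with ND and 5.98, 6.26 and 6.21 with HFD at 1 month, 6.29, 6.35 and 5.76 with ND and 5.17, 5.62 and 6.16 with HFD at 2 months, and 6.69, 5.81 and 6.55 with ND and 6.19, 6.09 and 6.38 with HFD at 4 months. E2f1, an activating E2F factor, was -0.48 ± 0.26 (adjusted p = 0.303) apart at 2 months, with HFD replicate 3 inside the ND range. Cdk2 stood at 0.02 ± 0.30 (adjusted p = 0.972) and Ccne2 at -0.19 ± 0.50 (adjusted p = 0.852).

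**Figure D4:**
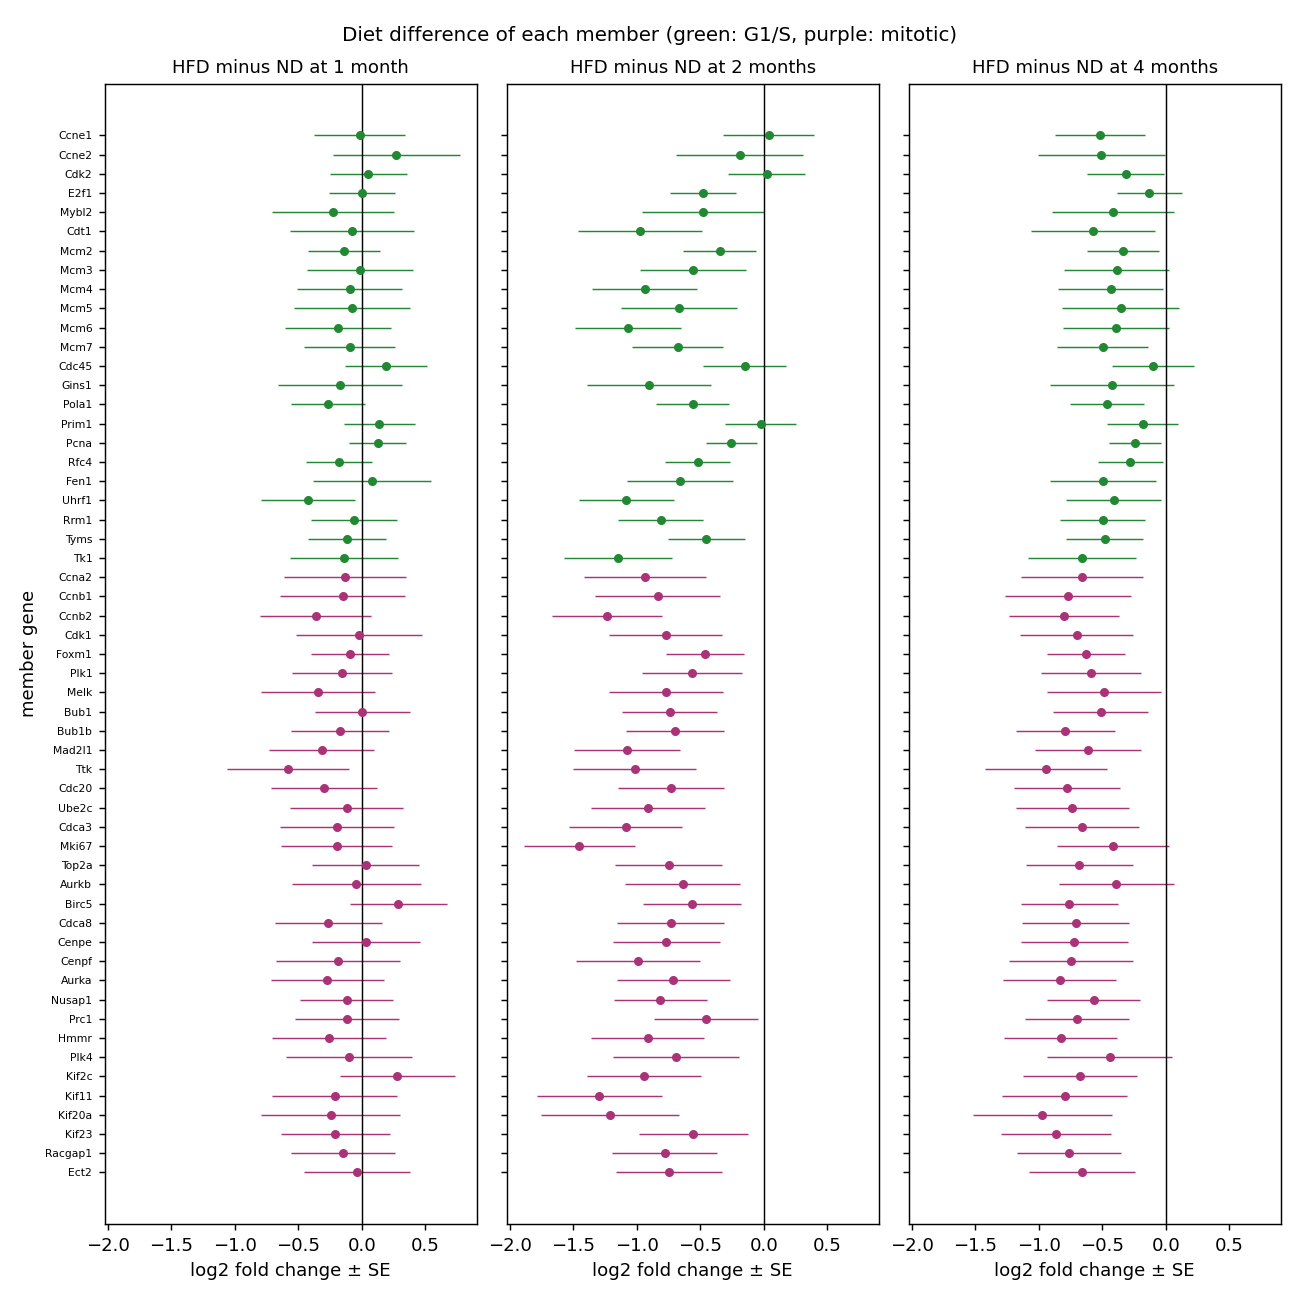
HFD minus ND log2 fold change of each of the 55 members at 1, 2 and 4 months, with the SE of the fit as bars (n = 3 arrays per group); G1/S members are green and mitotic members purple. Most bars at 1 month cross 0, and at 2 months the points run from -1.45 (Mki67) to 0.04 (Ccne1).

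Mitotic regulators, the kinases, cyclins and factors that drive entry into mitosis, had a median of -0.77 at 2 months, and 7 of 7 were negative, 5 without overlap. Ccnb2 stood at 8.56, 8.80 and 7.96 with ND and 8.09, 8.45 and 7.70 with HFD at 1 month, 8.11, 8.66 and 8.35 with ND and 6.43, 7.28 and 7.70 with HFD at 2 months, and 9.26, 7.64 and 9.47 with ND and 7.49, 8.31 and 8.16 with HFD at 4 months. Ccnb2, a B-type cyclin that partners Cdk1, was lower on every HFD array at 2 months, by -1.24 ± 0.44 (adjusted p = 0.136). It stood at -0.80 ± 0.44 (adjusted p = 0.999) at 4 months and had the lowest adjusted p of any member in the average over times, -0.80 ± 0.25 (adjusted p = 0.0923). Cdk1 (replicates 2 and 3 with ND at 1 month) stood at 8.77 and 8.57 with ND and 8.70, 8.79 and 8.44 with HFD at 1 month, 8.03, 8.83 and 8.64 with ND and 6.87, 8.11 and 8.19 with HFD at 2 months, and 9.43, 7.98 and 9.80 with ND and 7.80, 8.55 and 8.76 with HFD at 4 months. The mitotic kinase Cdk1 overlapped between the diets at 2 months, where its difference was -0.77 ± 0.44 (adjusted p = 0.336), and it had no value on ND 1-month replicate 1. Foxm1, the transcription factor of this wave, stood at -0.46 ± 0.31 (adjusted p = 0.404) at 2 months.

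Spindle checkpoint and anaphase-promoting complex members had the lowest role median at 2 months, -0.91, with 7 of 7 negative and 5 apart. Ttk stood at 6.35, 6.56 and 6.01 with ND and 5.45, 6.07 and 5.65 with HFD at 1 month, 5.69, 6.03 and 6.23 with ND and 4.31, 5.33 and 5.26 with HFD at 2 months, and 7.03, 5.33 and 7.67 with ND and 4.99, 5.91 and 6.29 with HFD at 4 months. Ttk, the kinase at the head of the checkpoint, was the lowest member in the average over times at -0.85 ± 0.28 (adjusted p = 0.104), with -0.58 ± 0.48 (adjusted p = 0.749), -1.02 ± 0.48 (adjusted p = 0.247) and -0.94 ± 0.48 (adjusted p = 0.999) at the 3 times in turn. Ube2c stood at 8.73, 8.90 and 8.63 with ND and 8.80, 8.83 and 8.27 with HFD at 1 month, 8.18, 9.0 and 8.59 with ND and 6.84, 8.14 and 8.04 with HFD at 2 months, and 9.62, 7.98 and 9.88 with ND and 7.87, 8.54 and 8.86 with HFD at 4 months. Ube2c, the ubiquitin-conjugating enzyme of the anaphase-promoting complex, was separated by a narrow margin at 2 months, with a difference of -0.91 ± 0.45 (adjusted p = 0.258).

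Among the chromosome and centromere members, 7 of 7 were negative at 2 months with a median of -0.75, and 3 were apart. Mki67 stood at 7.92, 7.77 and 7.16 with ND and 7.43, 7.65 and 7.17 with HFD at 1 month, 7.56, 7.85 and 7.46 with ND and 5.06, 6.36 and 7.10 with HFD at 2 months, and 8.57, 7.40 and 8.72 with ND and 7.39, 7.80 and 8.25 with HFD at 4 months. Mki67, the proliferation antigen that coats mitotic chromosomes, ran from 5.06 to 7.10 within the HFD group at 2 months, all of it below the ND range. Its 2-month difference was -1.45 ± 0.44 (adjusted p = 0.0872), and its average over the times was -0.69 ± 0.25 (adjusted p = 0.139).

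The spindle, motor and cytokinesis members had a median of -0.78 at 2 months, with 11 of 11 negative and 5 apart. Prc1 stood at 8.41, 8.68 and 8.42 with ND and 8.50, 8.57 and 8.10 with HFD at 1 month, 8.01, 8.68 and 8.35 with ND and 7.68, 8.01 and 7.99 with HFD at 2 months, and 9.37, 7.59 and 9.66 with ND and 7.59, 8.30 and 8.63 with HFD at 4 months. Prc1, which bundles the microtubules of the midzone, was the least different mitotic member at 2 months, -0.45 ± 0.41 (adjusted p = 0.541). Kif11 stood at 5.93, 6.01 and 5.77 with ND and 5.77, 5.77 and 5.52 with HFD at 1 month, 5.37, 6.02 and 5.77 with ND and 3.15, 5.07 and 5.05 with HFD at 2 months, and 6.68, 5.19 and 6.93 with ND and 4.96, 5.34 and 6.11 with HFD at 4 months. Kif11, the motor that pushes the spindle poles apart, reached its lowest value on HFD 2-month replicate 1 and differed by -1.30 ± 0.49 (adjusted p = 0.162). That value, 3.15, lies below the 3.22 cut applied to the mean of each probe set. Without that array the Kif11 difference was -0.66, and with all arrays its other tested probe set gave -0.90. Kif20a stood at 7.63, 8.14 and 7.41 with ND and 7.56, 7.91 and 6.97 with HFD at 1 month, 7.13, 8.11 and 7.83 with ND and 5.74, 6.77 and 6.92 with HFD at 2 months, and 8.55, 6.34 and 8.66 with ND and 6.14, 7.39 and 7.11 with HFD at 4 months. Kif20a, a kinesin of the midzone and the member with the widest spread within groups, stood at -1.21 ± 0.55 (adjusted p = 0.225) at 2 months and -0.97 ± 0.55 (adjusted p = 0.999) at 4 months.

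**Figure D5:**
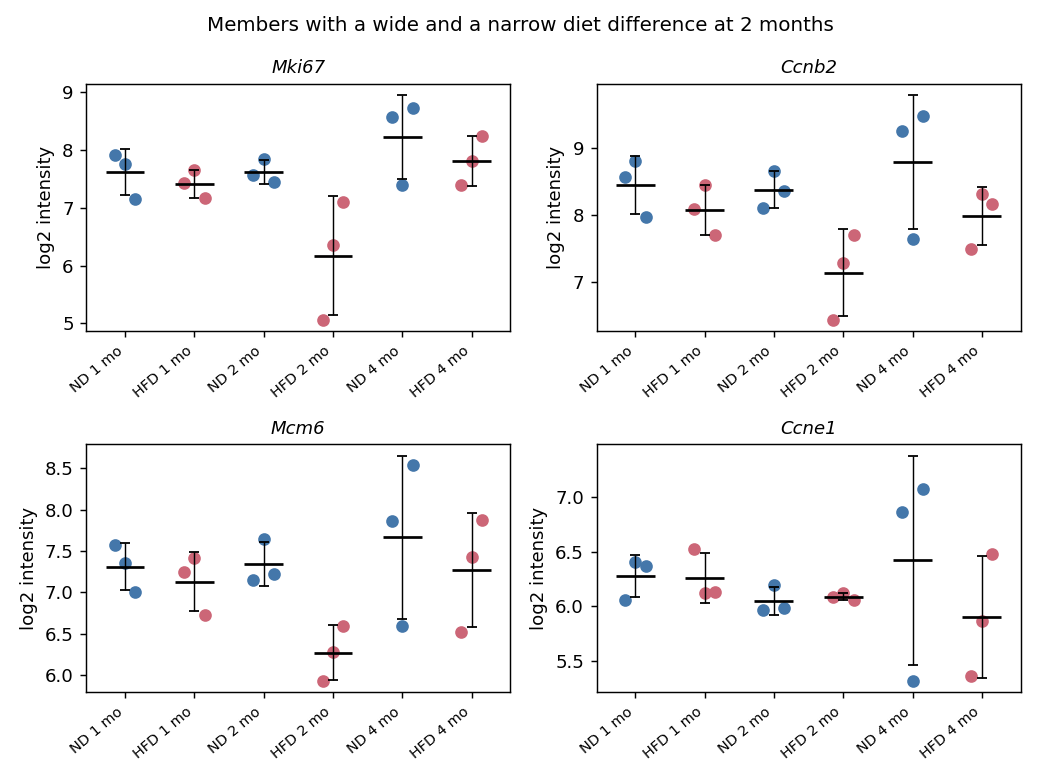
Log2 intensity of Mki67, Ccnb2, Mcm6 and Ccne1 on each array by diet and feeding time; points are arrays (blue ND, red HFD), bars the group mean ± SD (n = 3), and each panel has its own scale. Mki67 at 2 months lies between 5.06 and 7.10 with HFD and between 7.46 and 7.85 with ND, whereas the Ccne1 values of the diets coincide.

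At 1 month 43 of 55 members were negative, against 62.6% of named genes, and none passed (limma, lowest adjusted p 0.749; 0 at an unadjusted p under 0.05, against 8.91% of named genes in either direction). Uhrf1 was the one member with all HFD values below ND (11.5% of named genes), and Cdc45 the one with all above (5.39%). At 4 months 55 of 55 were negative, against 52.5% of named genes, from -0.97 in Kif20a to -0.10 in Cdc45. None passed (adjusted p = 0.999 for each in limma), 0 had an unadjusted p under 0.05 (1.76% of named genes in the lower direction), and 0 were free of overlap (4.64%).

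Averaged over the 3 times 55 of 55 members were negative, against 59.7% of named genes, with a median of -0.36 for G1/S and -0.56 for mitotic members. None passed in limma (lowest adjusted p 0.0923, Ccnb2), where 1.56% of named genes passed in the lower direction. At an unadjusted p under 0.05, 24 members were lower, 6 G1/S and 18 mitotic, against 13.8% of named genes. The sign was negative at all 3 times in 42 members, 15 G1/S and 27 mitotic, against 25.1% of named genes. The lowest of the 3 differences fell at 2 months in 42 members and at 4 months in 13. Of all named genes, 37.9% had their lowest difference at 2 months. Whether the diet effect differed between times was tested with limma's F test: 0 members passed and 0 had an unadjusted p under 0.05, against 6.67% of named genes.

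How the arrays were weighted changed these calls. With array weights, which let limma give less weight to arrays that vary more, 6 of 55 members passed at 2 months, all lower, against 12.3% of named genes: Mki67 (adjusted p = 0.0133), Uhrf1 (0.0174), Ccnb2 (0.0310), Tk1 (0.0356), Mcm6 (0.0364) and E2f1 (0.0387). In the average over times 15 passed with weights, 5 G1/S and 10 mitotic, all lower, against 10.1% of named genes, with Ccnb2 at the lowest adjusted p, 0.0146. From 2 to 4 months in HFD, 4 passed with weights, all higher, against 7.92% of named genes: Mki67, Uhrf1, Mcm6 and E2f1. The shares at 2 months and from 2 to 4 months in HFD are close to those of named genes, so these counts say nothing about the members in particular.

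Single arrays decided several of these values. Without HFD 1-month replicate 3 the 1-month medians were 0.03 for the G1/S and 0.01 for the mitotic members. Without HFD 2-month replicate 1 the 2-month mitotic median was -0.47, and 1 member was lower at an unadjusted p under 0.05. Omitting ND 2-month replicate 2 gave a count of 4, HFD 2-month replicate 3 gave 21 and ND 4-month replicate 2 gave 37. ND 4-month replicate 2 is not in the 2-month comparison, whose median stayed at -0.74 without it. That count moved through the estimate of the spread, which all 6 groups share. The 2-month counts at an unadjusted p under 0.05 with 1 array omitted stand without the share of named genes in the same setting. All probe sets passing at 2 months rose too, from 552 to 1261 without HFD 2-month replicate 3. These counts therefore do not set the members apart from other genes. Without HFD 2-month replicate 3, Mki67 (-1.92 ± 0.42, adjusted p = 0.0211) and Uhrf1 (-1.40 ± 0.38, adjusted p = 0.0493) passed at 2 months, where 3.29% of named genes passed lower, and Mki67 from 2 to 4 months in HFD (2.11, adjusted p = 0.0146), where 2.24% passed higher. Without ND 4-month replicate 2, 27 members, 6 G1/S and 21 mitotic, passed in the average over times, all lower, against 3.28% of named genes, with Ttk at the lowest adjusted p, 0.0183, and the 4-month medians were -0.93 and -1.28. Without ND 4-month replicate 3 the 4-month medians were -0.08 and -0.34, and without HFD 4-month replicate 1 they were -0.14 and -0.43.

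In the average over times the 24 members at an unadjusted p under 0.05 became 50 without ND 4-month replicate 2. They became 35 without HFD 4-month replicate 3 and 29 without HFD 2-month replicate 3. They became 9 when HFD 2-month replicate 1, ND 4-month replicate 3 or HFD 4-month replicate 1 was left out, and 10 when HFD 1-month replicate 3 or ND 4-month replicate 1 was. Omitting ND 2-month replicate 2 gave 11, and omitting ND 1-month replicate 2 gave 12. With any other array omitted the count lay between 17 and 25. The share of named genes in the same settings is not given here. All probe sets passing moved too, from 612 to 1053 without ND 4-month replicate 2 and to 117 without ND 4-month replicate 1. These counts therefore do not set the members apart from other genes.

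Within the diets, the members of HFD were lower at 2 months than at 1 month in 55 of 55 (48.6% of named genes), with a median of -0.69 against 0.01 for all named genes. None passed (limma, lowest adjusted p 0.451), 10 were lower at an unadjusted p under 0.05 (3.54% of named genes), and 33 did not overlap (6.4%). Without HFD 2-month replicate 1 the median was -0.43 and the count at an unadjusted p under 0.05 was 0. That count was 1 when either HFD 1-month replicate 1 or 2 was omitted, and omitting HFD 4-month replicate 2 gave 6. It was 17 with HFD 2-month replicate 3 omitted, 18 with ND 4-month replicate 3 omitted and 35 with ND 4-month replicate 2 omitted. The 4-month arrays are not in this comparison. Its median stayed at -0.69 without any 1 of them, and the count moved through the shared estimate of the spread. All probe sets passing from 1 to 2 months in HFD moved too, from 17 to 182 without HFD 2-month replicate 3. From 2 to 4 months in HFD 54 of 55 were positive (48.8% of named genes), with a median of 0.65, 8 higher at an unadjusted p under 0.05 (8.48%) and 4 without overlap (13.7%). Mki67 had the widest of these differences, 1.64 ± 0.44 (adjusted p = 0.0931), and none passed. The median was 0.34 when HFD 2-month replicate 1 was omitted and 0.42 when HFD 4-month replicate 3 was, with 1 member higher at an unadjusted p under 0.05 in each case. Omitting HFD 4-month replicate 2 gave a count of 2, and omitting HFD 4-month replicate 1 gave 22. It was 14 with ND 4-month replicate 3 omitted, 16 with HFD 2-month replicate 3 omitted and 28 with ND 4-month replicate 2 omitted. Without either ND array the median stayed at 0.65, since ND arrays enter this comparison only through the shared estimate of the spread. All probe sets passing here rose from 153 to 1073 without HFD 2-month replicate 3. In both comparisons the counts with 1 array omitted stand without the share of named genes in the same setting. Those counts therefore do not set the members apart from other genes. From 1 to 4 months in HFD 33 were negative, against 49.7% of named genes, and 22 positive, with a median of -0.07. This value turned with single arrays: 6 were negative without HFD 4-month replicate 1 (median 0.16) and 49 without HFD 4-month replicate 3 (median -0.30). Omitting replicate 1, 2 or 3 of HFD at 1 month gave medians of -0.02, 0.03 and -0.19 in turn.

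In ND the 2-month minus 1-month differences had a median of -0.08, with 41 of 55 negative (53.6% of named genes) and 1 without overlap in the lower direction (4.05% of named genes). All 55 were higher at 4 months than at 2 months (median 0.49, against 44.8% of named genes) and than at 1 month (median 0.37, against 43.6%), and none passed in limma. At an unadjusted p under 0.05, 1 member was higher at 4 than at 2 months (2.39% of named genes) and 0 at 4 than at 1 month (2.73%). Without ND 4-month replicate 3 the 4 minus 1 month medians in ND were 0.03 for the G1/S and 0.04 for the mitotic members, and without ND 4-month replicate 2 they were 0.88 and 1.00.

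Of 16 members with several tested probe sets, the sign at 2 months differed between them in 3, Ccne2, Cdc45 and Cdk2, and in the average over times in Ccne2 alone. Size could differ within 1 sign. At 2 months the probe sets of Tk1 ran from -1.62 to -0.45, of Cdc20 from -0.73 to -0.06 and of Mad2l1 from -1.08 to -0.32. Those of Hmmr lay close together, from -0.93 to -0.92.

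Genes of the same pathway outside the 60 gave further values on the same arrays. Of 45 further S-phase genes 39 were tested, 37 were negative at 2 months (median -0.36, against 55.3% of named genes) and none passed in limma. At an unadjusted p under 0.05, 5 were lower, a share near the 12.1% of named genes. Usp1, the deubiquitinase of PCNA, stood at -0.60 ± 0.19 (adjusted p = 0.104), and Blm, a helicase of recombination, at -0.83 ± 0.31 (adjusted p = 0.151). At 1 month Slbp, which binds histone mRNA, was 0.88 ± 0.28 (adjusted p = 0.301), the other way from most of the list. Of 57 further mitotic genes 47 were tested, 43 were negative at 2 months (median -0.72, against 55.3% of named genes) and 47 at 4 months (median -0.54, against 52.5%), and none passed. At 2 months 17 were lower at an unadjusted p under 0.05 (12.1% of named genes) and 1 was higher, the cytokinesis kinase Cit, named after its value was seen, at 1.03 ± 0.37 (adjusted p = 0.145). The condensin subunit Ncapd2 was -0.97 ± 0.30 (adjusted p = 0.0887) at 2 months and -0.57 ± 0.17 (adjusted p = 0.0811) on average, and Cdkn3, a phosphatase of cyclin-dependent kinases, -1.31 ± 0.43 (adjusted p = 0.108).

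The genes that govern entry into the cycle did not share the members' median. Of 20 G1 cyclins, RB family and DREAM genes 17 were tested, 8 were negative and 9 positive at 2 months, with a median of 0.01, and none passed. Ccnd2, a D-type cyclin that starts the cycle, stood at 10.2, 9.98 and 9.19 with HFD and 8.43, 8.90 and 9.15 with ND at 2 months, a difference of 0.98 ± 0.41 (adjusted p = 0.199). Of the 7 inhibitors of cyclin-dependent kinases, 4 were negative at 2 months (median -0.18), 3 at an unadjusted p under 0.05 (12.1% of named genes), and none passed. Cdkn1c stood at 4.35, 3.97 and 5.82 with HFD and 8.17, 6.67 and 8.03 with ND at 2 months, and its groups were apart, at -2.91 ± 0.82 (adjusted p = 0.0718). Cdkn1b stood at -0.72 ± 0.20 (adjusted p = 0.0706) and Cdkn1a at 0.43 ± 0.20 (adjusted p = 0.243).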

How the data were processed

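Total RNA of 18 cultures was hybridised to Affymetrix rat arrays of 31099 probe sets. The deposited values are probe set intensities on a linear scale (2.52 to 9915), summarised with RMA, version not given in the sources used here, per the submitters' processing notes. The deposited column of ND 1-month replicate 1 was moved down by the 1343 empty cells at its end. Over probe sets it correlated with the average of all remaining arrays at 0.0909 as deposited and 0.990 once moved. That leaves 1343 probe sets without a value there.

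Log2 was taken with no added constant. The 57 control probe sets and the dimmest 30% (at or below 3.22 log2 units) were left out, which left 21729. GEO's annotation of this platform gave 1 symbol to 20832 probe sets, several to 436 and no symbol to 9831. A group-means model over all 18 arrays was fitted with limma 3.58.1 (R 4.3.3), with two-sided moderated tests and Benjamini-Hochberg adjustment. A fold change is HFD minus ND or later minus earlier, ± the SE of the fit. Array number limits the precision. Tables and plots used Python 3.11.15, pandas 2.3.3 and matplotlib 3.10.9.

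The members and all gene lists were chosen with earlier results of these data known. Values on every array are given for the brightest member of each of 8 roles, the member of each role with the largest absolute averaged diet statistic, Mki67, and the members with the largest and smallest spread within groups. Pathway genes named are among the 2 of each list with the largest absolute statistic in a diet comparison, with exceptions marked. To see whether replicate numbers pair the arrays, residuals of same-numbered arrays in different groups were correlated. The 45 correlations ran from -0.572 to 0.662 and averaged -0.0254, against 0.0104 for 90 pairs with other numbers. Pairs across all feeding times were pooled, so a pairing within 1 feeding time was not tested apart. The numbers were not treated as pairs. Alternatives covered the filter, normalization, array weights, other variance models, the compared arrays alone, probe set choice, the macrophage marker mean as covariate, a replicate block and leaving out each array.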

Additional observations from a re-analysis of the deposited data

Results flagged for a closer look

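Pcna, the sliding clamp of the DNA polymerases, stood at 0.13 HFD minus ND at 1 month, with every HFD array above the mean of the ND arrays, and at -0.26 at 2 months, with every HFD array below it. At 1 month that mean rests on 2 ND arrays, since replicate 1 has no value there. limma's F test of a diet effect that differs between the 3 feeding times gave an adjusted p of 0.87 for Pcna, and the 1-month difference against the 2-month difference alone was not tested.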

How the results depend on the processing

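No member passed with equal weights and all arrays, so there was no called direction to turn. Uncalled medians did change sign when 1 array was left out: the 1-month diet medians, the 4 minus 1 month medians in HFD and the 2 minus 1 month medians in ND, the last for G1/S members also with median centring. Of the diet differences of the members described array by array, 1867 kept their side of the threshold and 25 moved past it, all with array weights or without a single array. Array weights let 6 members pass at 2 months, 15 in the average over times and 4 from 2 to 4 months in HFD, where equal weights gave 0 each. Leaving out each array in turn gave 0 to 2 members passing at 2 months, 0 to 27 in the average and 0 to 1 from 2 to 4 months in HFD. The same step moved the 4-month diet medians of the G1/S members from -0.93 to -0.0766 and of the mitotic members from -1.28 to -0.34. It moved the ND medians of 4 minus 1 month from 0.0317 to 0.88 (G1/S) and from 0.0351 to 1.00 (mitotic), and the ND G1/S median of 4 minus 2 months from 0.0143 to 0.85. These extremes came without ND 4-month replicate 2 or 3, and the cause was not tested. With the replicate block 0 members passed in each comparison, as without it, and the 2-month medians stayed at -0.56 and -0.77. The block lowered the count of all probe sets passing from 552 to 317 at 2 months and from 612 to 350 in the average. That 2-month count ran from 2 with the compared arrays alone to 4330 with array weights.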

Other observations

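Some regulators outside the members had wide differences between feeding times within HFD, and they are named after their values were seen. From 2 to 4 months in HFD the growth factor-responsive transcription factor Myc stood at 1.56 ± 0.46 (adjusted p = 0.123), the D-type cyclin Ccnd2 at -1.24 ± 0.41 (adjusted p = 0.159), and the inhibitor Cdkn1b at 0.90 ± 0.20 (adjusted p = 0.0544). None of them passed in limma's test. At 4 months Ccnd1 stood at -1.03 ± 0.65 (adjusted p = 0.999), HFD minus ND.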
